A study of Mus musculus with 24 samples.

Results

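Mouse skin irradiated with a proton beam at the standard dose rate was compared with untreated mouse skin by sequencing of RNA given as polyA RNA. Members were chosen by treatment and tissue, as the labels give them: the skin libraries of the group S-PRT (4) and of the group Untreated (4), 8 of the 24 libraries in the series. The other 16 libraries are skin given the F-PRT treatment and the same 3 groups in bone. F-PRT and S-PRT are read here as proton radiotherapy at an ultra-high (FLASH) and at a standard dose rate, in a study described as a mouse sarcoma model. All libraries of the comparison are skin tissue of female mice aged 10 weeks, taken after S-PRT or without treatment, and the labels call the 4 libraries of a group biological replicates. Strain, genotype, radiation dose, the field irradiated and the time from irradiation to harvest are unstated in the sources at hand, and nothing in them ties a library to a named animal. Values are CPM, counts scaled to a common library size so that libraries can be compared. A gene is said to have risen or fallen where edgeR's quasi-likelihood test, adjusted by the Benjamini-Hochberg method over all genes tested, gave an adjusted p under 0.05.

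Ionising radiation breaks DNA, and the damage stabilises the transcription factor p53, which switches on genes that halt the cell cycle, repair DNA, start cell death or, like Mdm2, shut p53 down again. Skin has a dividing basal epidermal layer, differentiating layers above it, hair follicles with sebaceous glands, and a dermis of fibroblasts, vessels and immune cells. Basal keratinocytes and the sebaceous and follicular epithelium renew themselves throughout life, and sebaceous glands and the outer epidermis make large amounts of cholesterol, fatty acids and ceramides for the skin barrier.

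The 12 skin libraries held 16418026 to 22088370 expected counts (S-PRT 18800586 to 22088370, Untreated 16711456 to 21201577). Epidermal markers were abundant in all 8 libraries compared: Krt14, of basal keratinocytes, lay between 1960 and 8850 CPM, and Krt1, of the layers above, between 1400 and 4350 CPM. The library S-PRT 4 stood apart from the other S-PRT libraries. Its mean log2 CPM over 20 endothelial markers was -0.3, against 3.71 to 3.97 in S-PRT 1 to 3 and 2.34 to 3.6 in the Untreated libraries. Summed, these markers came to 21.3 CPM in S-PRT 4, to 383 to 439 CPM in S-PRT 1 to 3 and to 131 to 339 CPM in Untreated skin, and Cldn5, of endothelial tight junctions, had no count in S-PRT 4. Over 16 fibroblast markers it was 3.98, against 6.71 to 6.94 in S-PRT 1 to 3, and over 14 basal keratinocyte markers 9.93, against 8.41 to 8.58. Immune markers were low in it as well: 2.53 over 18 macrophage genes, against 4.85 to 4.95 in S-PRT 1 to 3, and -0.81 over 17 T and NK cell genes, against 1.46 to 1.57. In bulk tissue, fewer cells of a type and less RNA per cell cannot be told apart. Untreated 1 differed in another way, with 10.796% of its counts on ribosomal RNA-like genes, against at most 4.326% in the 11 other skin libraries. Skeletal muscle markers ranged from -0.25 to 9.66 over the 8 libraries, with the lowest level in Untreated 4 and the highest in S-PRT 1. List counts that change without S-PRT 4 are given beside the results they touch. Calls of single genes and medians without it are given for some.

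**Figure D1:**
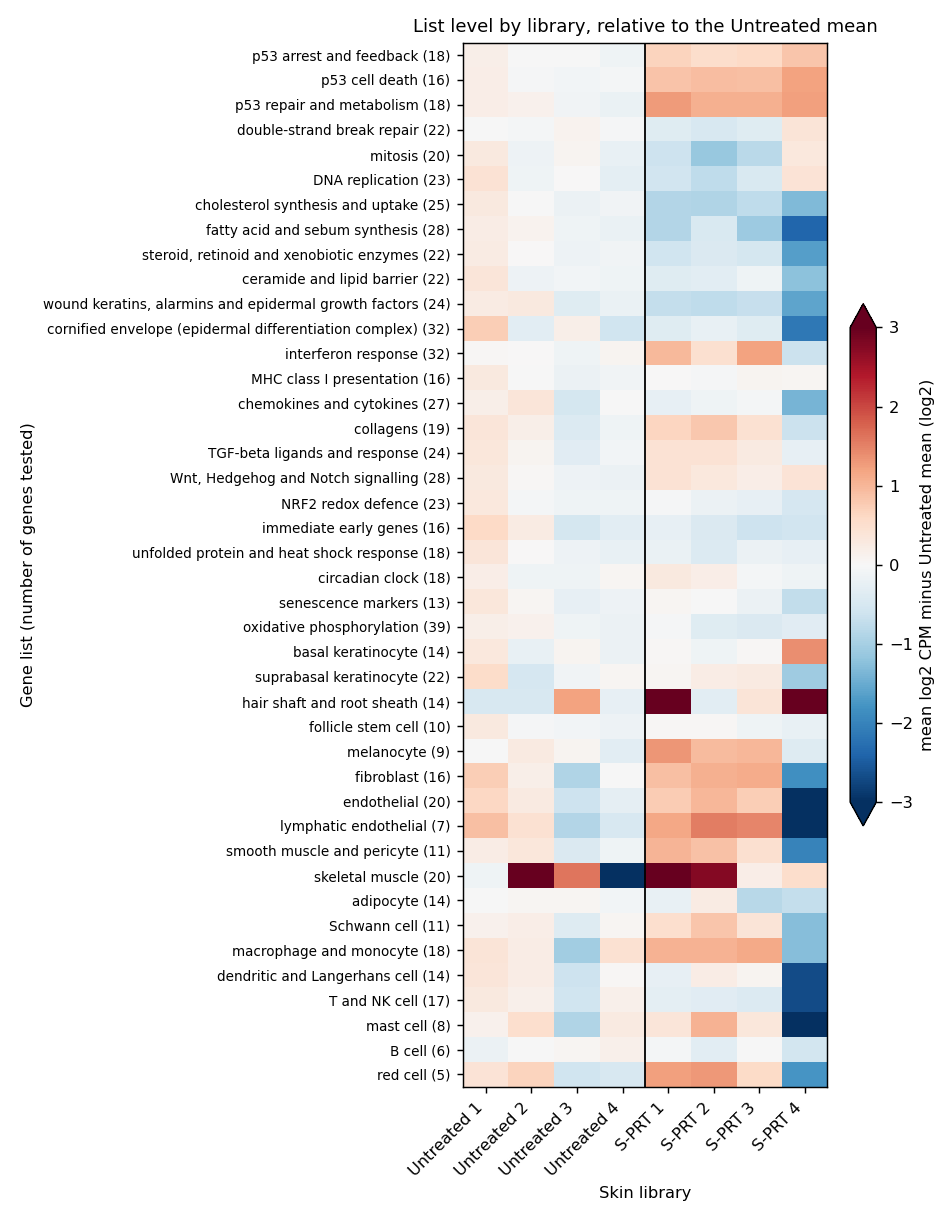
Mean log2 CPM of each gene list (rows, number of genes tested in parentheses) in each of the 8 skin libraries (columns), as the difference from the mean of the 4 Untreated libraries on a log2 scale; colours end at 3 log2 units either way. The endothelial, fibroblast, macrophage and mast cell lists are low in S-PRT 4, while the 3 p53 lists are above and the cholesterol list below the Untreated mean in each S-PRT library.

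Of 19038 genes tested, 827 (4.34%) differed between S-PRT and Untreated skin: 348 rose (1.83%) and 479 fell (2.52%), and 163 of the rises and 251 of the falls were at least 2-fold. At an unadjusted p under 0.05 there were 3201 genes. Without S-PRT 4 the same test called 2292 genes (12%), with 1261 rises (6.62%) and 1031 falls (5.42%). All 348 rises and 473 of the 479 falls were called in the same direction without it. A set of 389 genes, 157 higher and 232 lower, was called whichever single skin library was left out. Each of these fits also took its spread from F-PRT libraries. With only the 8 libraries compared, 307 genes were called. The CPM of the S-PRT and Untreated groups did not overlap for 726 genes with S-PRT above (3.81%) and 1022 with S-PRT below (5.37%). The counts of each list below are to be read against these shares over all genes.

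The p53 programme was higher in irradiated skin. Of 52 genes in the 3 p53 lists, 29 rose and 0 fell, where 1.83% of all genes tested rose; their median log2 change was 0.85, against 0.0 over all genes. Left out singly, the skin libraries moved the number of rises between 21 (without Untreated 3) and 32 (without Untreated 1), and without S-PRT 4 it was 31. Of the arrest and feedback genes, 10 of 18 rose (median log2 change 0.6). Of the cell death genes 10 of 16 rose (median 1.03), and of the repair and metabolism genes 9 of 18 rose (median 0.86). Without S-PRT 4, 11 and 10 of these rose (medians 0.89 and 0.82), where 6.62% of all genes rose. No member of these lists fell.

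Cdkn1a encodes p21, the inhibitor of cyclin-dependent kinases through which p53 halts division. It lay at 330, 319, 335 and 313 CPM in S-PRT 1 to 4 and at 280, 149, 137 and 135 CPM in Untreated 1 to 4. The S-PRT libraries were close together and all above the Untreated ones, among which Untreated 1 was well above the others. Cdkn1a rose 1.85-fold (log2 0.89 ± 0.20 SE, edgeR adjusted p = 0.0278). The call was lost when any of S-PRT 1, S-PRT 2, S-PRT 3, Untreated 2, Untreated 3 or Untreated 4 was left out, with an adjusted p of up to 0.109. Shown is the promoter stretch at the upstream end of the annotated Cdkn1a gene (chromosome 17, forward strand, GRCm38.p6, from RefSeq). It is given because p53 binds paired short elements in its targets. The capitals mark a pair matched by pattern, each element made of purines, C, A or T, A or T, G and pyrimidines. At most 13 bases lie between the elements, and the stretch lies at chr17:29090866-29090977. The bases directly after the second marked element fit the same pattern except at their first base, and are not capitalised. Which of these elements p53 binds was not tested.
Cdkn1a: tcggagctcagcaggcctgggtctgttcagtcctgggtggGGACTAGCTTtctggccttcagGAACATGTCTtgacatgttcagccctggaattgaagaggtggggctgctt
Searched on both strands over 250 bases before to 50 bases after each annotated start, such a pair was found in 24 of 32851 promoters (0.07%), and among the 17, 12 and 14 members of the 3 lists that had an entry, that of Cdkn1a held one and the others did not. The other members, and sites outside this window, were not searched.

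Among the arrest genes, Zmat3, an RNA-binding p53 target, was at 242, 237, 267 and 302 CPM after S-PRT and 110, 85, 99.2 and 102 CPM in Untreated skin. All 4 irradiated libraries exceeded all 4 untreated ones, and Zmat3 rose 2.65-fold (log2 1.40 ± 0.11 SE, edgeR adjusted p = 2.72e-05). Ccng1, cyclin G1, was at 565, 320, 312 and 305 CPM against 77.1, 135, 95.5 and 76.2 CPM. It rose 3.91-fold, with S-PRT 1 the highest of the irradiated libraries. Psrc1, which binds the mitotic spindle, rose 2.18-fold to 24.8 ± 3.03 CPM (SD, n = 4) from 11.4 ± 1.56 CPM. Mdm2, the ubiquitin ligase that degrades p53 and closes its feedback loop, was at 104, 101, 97.2 and 105 CPM after irradiation and 55.5, 70.9, 67.1 and 64.6 CPM without it. It rose 1.58-fold (log2 0.66 ± 0.10 SE, edgeR adjusted p = 0.00255). Each of Zmat3, Ccng1, Psrc1 and Mdm2 stayed past the threshold when any single skin library was left out. Members of a list were named in order of how many such fits kept their call, so the choice favours this.

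Among the cell death genes, Trp53inp1, a stress protein of apoptosis and autophagy, was at 329, 296, 328 and 440 CPM against 69, 62.9, 73.2 and 84.4 CPM. It rose 4.81-fold (log2 2.27 ± 0.16 SE, edgeR adjusted p = 1.03e-05), and the lowest S-PRT library was far above the highest Untreated one. Apaf1, the scaffold of the caspase-activating apoptosome, was at 42.6, 54.4, 47.6 and 56.3 CPM against 16.6, 20.7, 14 and 20.1 CPM. It rose 2.82-fold (edgeR adjusted p = 7.78e-05). Tnfrsf10b, a death receptor for TRAIL, rose 2.91-fold, and S-PRT 4 (41.8 CPM) was above S-PRT 1 to 3 (23.4 to 24.2 CPM). Without S-PRT 4 its log2 change was 1.31 instead of 1.54, still past the threshold. Aen, an apoptosis-enhancing nuclease, rose 2.21-fold, from 29.7 ± 2.69 to 65.9 ± 9.46 CPM (SD, n = 4).

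Among repair and metabolic targets, Mgmt, which removes alkyl groups from guanine, was at 9.78, 12, 13.3 and 15.1 CPM against 2.23, 2.19, 1.81 and 2.13 CPM. The Untreated values lay within a narrow band, and Mgmt rose 5.97-fold (log2 2.58 ± 0.17 SE, edgeR adjusted p = 1.03e-05). Dcxr, a carbonyl reductase, was at 38.6, 36.3, 39.6 and 53.6 CPM against 9.78, 5.15, 5.14 and 5.47 CPM and rose 6.57-fold. Polk, a polymerase that copies past DNA lesions, was at 44, 44.5, 43.7 and 67.9 CPM against 12.3, 15.8, 16.1 and 15.3 CPM and rose 3.36-fold. Ephx1, an epoxide hydrolase, rose from 71.6 ± 22.6 to 241 ± 42 CPM (SD, n = 4), also 3.36-fold. Mgmt, Dcxr, Polk and Ephx1 were called in each of the 12 fits that left out a library, the count by which members were chosen for naming.

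**Figure D2:**
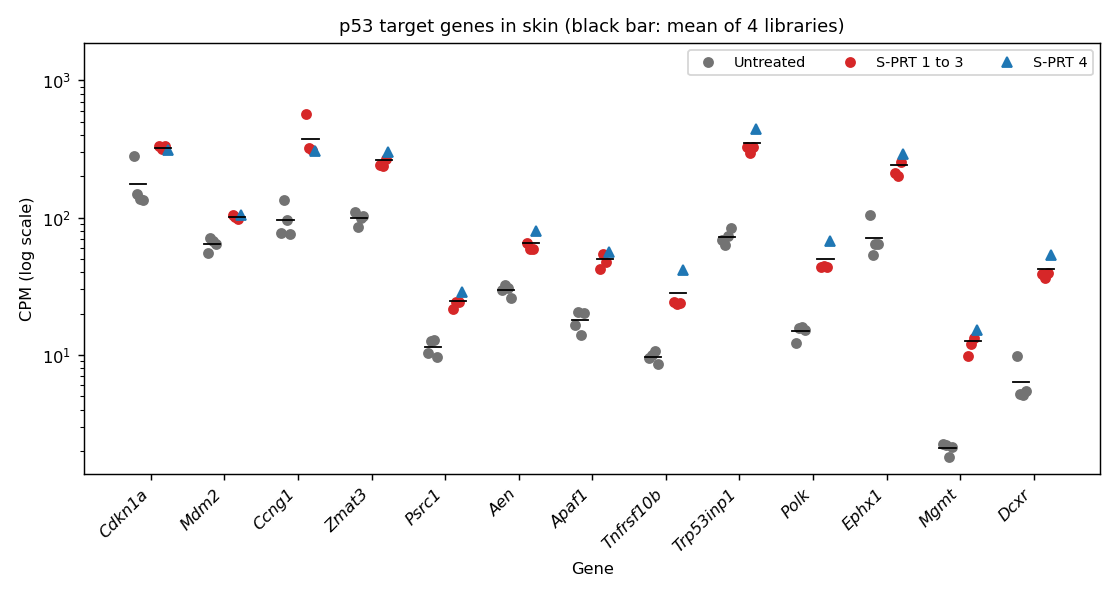
CPM on a log scale of 13 p53 target genes in skin: grey circles are the 4 Untreated libraries, red circles S-PRT 1 to 3, blue triangles S-PRT 4, and black bars the means of 4 libraries. For each of the 13 genes all S-PRT libraries lie above all Untreated libraries, and for Cdkn1a Untreated 1 (280 CPM) is the closest.

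Genes of cell division were not called with all libraries. Of the mitosis genes 0 of 20 rose or fell, although all 20 had negative log2 changes (median -0.47), and in the list of DNA replication 0 of 23 rose or fell (median -0.30). Without S-PRT 4, 11 mitosis genes and 9 replication genes fell, with medians of -0.87 and -0.56, where 5.42% of all genes fell in that fit. Mki67, which marks cycling cells, was at 103, 67.7 and 74.2 CPM in S-PRT 1 to 3, at 217 CPM in S-PRT 4, and at 182, 130, 166 and 138 CPM in Untreated skin. S-PRT 1 to 3 were all below the Untreated range and S-PRT 4 above it. The log2 change of Mki67 was -0.42 (edgeR adjusted p = 0.548), and -0.90 without S-PRT 4 (adjusted p = 0.00848). Bub1 and Cdk1, a spindle checkpoint kinase and the kinase of mitotic entry, had log2 changes of -0.94 and -0.77 (adjusted p = 0.0772 and 0.157). Without S-PRT 4 they were -1.21 and -1.13, past the threshold. Gins1, a part of the replicative helicase, and Tyms, thymidylate synthase, were at -0.96 and -0.45 with all libraries (adjusted p = 0.0636 and 0.32). Without S-PRT 4 they fell, by 1.17 and 0.76 log2 units. In S-PRT 4 the mean log2 CPM of the mitosis list was 4.45, against 2.98 to 3.51 in S-PRT 1 to 3, and its basal keratinocyte level was also the highest; the part of one in the other was not tested.

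Of 22 genes of double-strand break repair 1 fell and 0 rose, where 2.52% of all genes tested fell. The member that fell was H2afx, the histone variant phosphorylated beside breaks, at 22.5, 20.7, 17.6 and 31.3 CPM against 59, 45.9, 37 and 33.9 CPM. H2afx fell to 0.524 times the Untreated level (edgeR adjusted p = 0.0266), with S-PRT 4 near the lowest Untreated library; the call was lost without any of S-PRT 1, S-PRT 2, S-PRT 3 or Untreated 2. Without S-PRT 4, 8 genes of this list fell, Brca1 and Chek1 among them, where 5.42% of all genes fell in that fit.

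Cholesterol synthesis was the list with the largest share of members that fell. Of 25 genes, 16 fell and 0 rose (median log2 change -1.05), where 2.52% of all genes tested fell, and the same number fell without S-PRT 4 (median -0.93). All 25 had negative log2 changes, and 17 lay lower after S-PRT with no overlap between the groups, where 5.37% of all genes did. The number of falls stayed between 14 and 16 with any single skin library left out. Idi1, isopentenyl diphosphate isomerase, was at 104, 104, 129 and 68.6 CPM against 322, 394, 324 and 325 CPM. It fell to 0.297 times (log2 -1.75 ± 0.17 SE, edgeR adjusted p = 0.000101), with S-PRT 4 the lowest library. Nsdhl, a sterol dehydrogenase, was at 29, 27.7, 25.1 and 24.6 CPM against 81, 65.4, 53 and 55.9 CPM and fell to 0.417 times. Lss, lanosterol synthase, was at 40.5, 42.8, 38.2 and 33.7 CPM against 139, 103, 92.5 and 93.2 CPM and fell to 0.362 times.

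Cholesterol genes are controlled by SREBP2, which binds sterol regulatory elements in promoters, often beside CCAAT boxes bound by NF-Y. The sequences below are upstream promoter stretches of list members that fell, on the forward strand of GRCm38.p6 as RefSeq gives them, and only the motif named for each is in capitals. For Hmgcs1, at chr13:119690174-119690262, the capitals mark TCACNCCAC, a sterol regulatory element, ending 129 bases before the start. For Idi1 (chr13:8885521-8885605), Nsdhl (chrX:72918372-72918520) and Lss (chr10:76531503-76531587) they mark CCAAT read from the other strand (ATTGG), which the stretch of Hmgcs1 also holds, in lower case.
Hmgcs1: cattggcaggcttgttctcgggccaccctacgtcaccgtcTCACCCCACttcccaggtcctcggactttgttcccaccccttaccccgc
Idi1: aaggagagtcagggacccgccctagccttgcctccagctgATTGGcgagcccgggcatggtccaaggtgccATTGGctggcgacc
Nsdhl: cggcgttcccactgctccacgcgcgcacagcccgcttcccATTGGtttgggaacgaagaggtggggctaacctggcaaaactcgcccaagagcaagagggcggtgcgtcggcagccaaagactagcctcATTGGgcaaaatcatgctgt
Lss: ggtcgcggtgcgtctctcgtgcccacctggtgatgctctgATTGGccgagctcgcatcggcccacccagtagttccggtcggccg
On either strand, TCACNCCAC was found in 408 of 32851 promoters (1.24%) and, of the 17 list genes with an entry, in Hmgcs1. CCAAT, searched after the values were seen, was found for 16 of the 17 (94.12%), for 48.5% of the genes that fell and for 42.19% of all genes tested that had an entry. These are matches of letters and say nothing on their own about binding.

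Of 28 fatty acid and sebum genes tested, 11 fell and 0 rose (median -0.94), where 2.52% of all genes tested fell. Without S-PRT 4 11 fell and 1 rose (median -0.62), where 5.42% and 6.62% of all genes did. Without S-PRT 1 or without Untreated 2, only 3 fell. Mc5r, the melanocortin receptor that drives sebum production, was at 10.9, 8.41, 6.21 and 2.46 CPM against 45.7, 44.5, 34.5 and 49.6 CPM. It fell to 0.162 times the Untreated level (log2 -2.63 ± 0.36 SE, edgeR adjusted p = 0.00121). Plin2, a coat protein of lipid droplets, was at 82.3, 84.8, 79.1 and 35.2 CPM against 262, 222, 187 and 170 CPM and fell to 0.335 times. Soat1, which esterifies cholesterol, was at 152, 167, 141 and 32.7 CPM against 591, 532, 415 and 557 CPM and fell to 0.236 times. In Plin2 and Soat1 the value of S-PRT 4 was less than that of every other library, and the changes without it were log2 -1.35 and -1.76, instead of -1.58 and -2.09. Elovl3, a fatty acid elongase of sebaceous glands, fell to 0.262 times (adjusted p = 0.0209), a call lost without S-PRT 1 or without Untreated 2. The mean log2 CPM of the list was 5.81 to 6.45 in S-PRT 1 to 3, 4.52 in S-PRT 4 and 6.7 to 7.13 in Untreated skin.

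Among steroid, retinoid and xenobiotic enzymes, 4 of 22 tested fell and 0 rose, where 2.52% of all genes tested fell. The median of the list was near that of all genes, at -0.13. The members that fell did so steeply. Cyp2g1, a cytochrome P450, was at 12.5, 13.9, 9.39 and 2.4 CPM against 332, 374, 264 and 126 CPM. It fell to 0.035 times the Untreated level, the largest fall by the naming rule used here (log2 -4.84 ± 0.55 SE, edgeR adjusted p = 0.000367). Akr1c18, which inactivates progesterone, was at 7.37, 8.92, 20.6 and 3.81 CPM against 131, 125, 129 and 104 CPM and fell to 0.0837 times. Hsd3b6, a 3-beta-hydroxysteroid dehydrogenase, was at 7.63, 11.2, 9.24 and 2.05 CPM against 72.6, 67.3, 51.1 and 45.7 CPM and fell to 0.128 times. Hsd17b2, which inactivates oestradiol and testosterone, fell to 0.195 times, a call lost without Untreated 2. Cyp2g1, Akr1c18 and Hsd3b6 kept their calls with any single library left out. Without S-PRT 4, 6 of the list fell and 2 rose, where 5.42% and 6.62% of all genes did.

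Of 22 ceramide and lipid barrier genes, 5 fell and 0 rose (median -0.29), where 2.52% of all genes tested fell. The same counts were found without S-PRT 4 (median -0.11), where 5.42% of all genes fell. Without S-PRT 1 or without Untreated 2, only 2 fell. Cers4, a ceramide synthase, was at 90, 102, 88.3 and 27.3 CPM against 416, 337, 265 and 351 CPM and fell to 0.225 times (edgeR adjusted p = 0.00503). Slc27a4, a fatty acid transporter needed for the barrier, was at 137, 144, 150 and 59.7 CPM against 431, 292, 243 and 305 CPM and fell to 0.386 times. Degs1, the enzyme that makes ceramide from dihydroceramide, fell to 0.653 times, and Elovl4, which makes very long fatty acids, to 0.405 times. The call of Degs1 was lost without S-PRT 1, S-PRT 2 or Untreated 2. That of Elovl4 held in 2 of the 12 fits that leave out a library, those without S-PRT 2 and without S-PRT 4.

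Of 24 wound keratins, alarmins and epidermal growth factors tested, 8 fell and 1 rose (median -0.75), where 2.52% and 1.83% of all genes tested did. Without S-PRT 4 10 fell and 1 rose (median -0.56), where 5.42% and 6.62% of all genes did. Without S-PRT 2, 5 fell. The member that rose was Plau, the urokinase plasminogen activator, by log2 0.45 (adjusted p = 0.0388), a call held in 3 of the 12 fits that leave out a library. Fabp5, the epidermal fatty acid binding protein, was at 74.5, 101, 73.4 and 48.9 CPM against 272, 248, 208 and 224 CPM and fell to 0.312 times (edgeR adjusted p = 0.00102). Krt16, a keratin of wounded and stressed epidermis, was at 71.9, 59, 44.5 and 79.9 CPM against 235, 135, 131 and 123 CPM and fell to 0.409 times. Lcn2, which withholds iron from bacteria, was at 4.69, 3.69, 4.19 and 0.937 CPM against 22.6, 38.4, 9.31 and 15.9 CPM. It fell to 0.158 times, although the Untreated libraries themselves spread widely. Slpi, a protease inhibitor, fell to 0.283 times, from 3.99 ± 1.29 to 1.12 ± 0.29 CPM (SD, n = 4).

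Few differentiation genes of the epidermis passed the threshold. In the cornified envelope list, 4 of 32 tested fell and 0 rose (median -0.24), where 2.52% of all genes tested fell. Without S-PRT 4, 5 fell and 1 rose (median 0.03, so the sign of the median changed), where 5.42% and 6.62% of all genes did. The members that fell with all libraries were Sprr2i, Sprr2d, Sprr2e and Lce3f, small precursors of the cornified envelope. Sprr2d was at 2.14, 1.95, 2.37 and 0.351 CPM against 19.6, 18.4, 11.2 and 3.41 CPM and fell to 0.131 times (edgeR adjusted p = 0.0119). Sprr2i was at 0.536, 0.615, 0.555 and 0.176 CPM against 5.16, 7.18, 4.72 and 1.58 CPM. Sprr2d and Sprr2i kept their calls whichever library was left out, while those of Sprr2e and Lce3f held in 5 and 2 of the 12 such fits. The Sprr2 and Lce3 genes are near copies of each other, so the division of reads among them is uncertain. The major keratins did not pass the threshold. Krt1 was at 1670, 1540, 1880 and 1960 CPM against 4350, 1400, 1660 and 1840 CPM (log2 -0.39, edgeR adjusted p = 0.568). Krt14 was at 2290, 1990, 2630 and 8850 CPM against 4330, 1960, 2670 and 2100 CPM (log2 0.51, adjusted p = 0.618), and its log2 change was -0.26 without S-PRT 4. Among 22 suprabasal genes 0 rose or fell (median -0.10), and among 14 basal genes 0 rose or fell (median 0.51, and -0.03 without S-PRT 4). Without S-PRT 4, 1 rose and 1 fell in each of these lists. Klk11 and Klk8, proteases of the shedding layer, had log2 changes of -0.55 and -0.64 (adjusted p = 0.12 and 0.372), and Klk11 fell without S-PRT 4 (log2 -0.66, adjusted p = 0.0324). Dst and Itgb4, which anchor basal cells, had 0.82 and 1.01 (adjusted p = 0.0687 and 0.134), with S-PRT 4 the highest library in both; without it Dst rose (log2 0.49, adjusted p = 0.027).

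**Figure D3:**
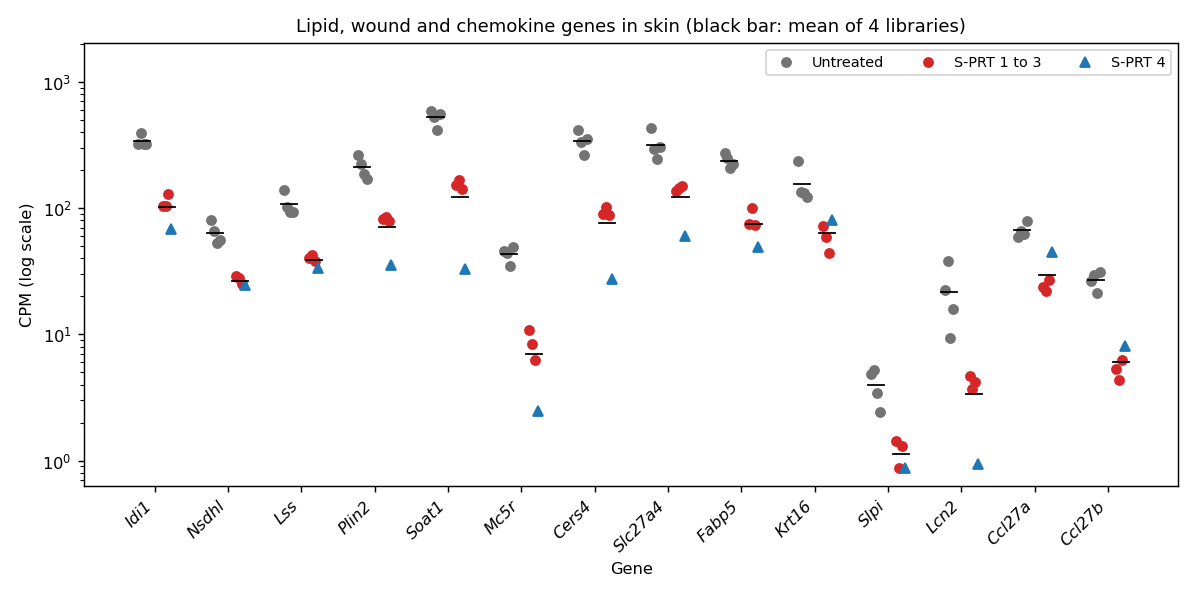
CPM on a log scale of 14 genes of lipid metabolism, wounding and chemokines in skin, with symbols as in the plot of p53 targets and black bars for the means of 4 libraries. All S-PRT libraries lie below all Untreated libraries for each gene; S-PRT 4 is the lowest for Soat1 (32.7 CPM) and Lcn2 (0.937 CPM) and the highest S-PRT library for Ccl27a (44.8 CPM) and Ccl27b (8.08 CPM).

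The largest rises were in genes with little expression in untreated skin. Gria3, a subunit of AMPA-type glutamate receptors encoded at chrX:41400854-41678601 (GRCm38), was at 41, 55, 57.6 and 64.3 CPM after S-PRT and 2.82, 3.23, 2.6 and 2.74 CPM without it. It rose 19.1-fold (log2 4.25 ± 0.16 SE, edgeR adjusted p = 3.45e-08), the smallest p of any gene named. Igsf9b, a synaptic adhesion protein, was at 39.6, 40.6, 40.6 and 80.6 CPM against 4.18, 4.82, 3.51 and 4.87 CPM and rose 11.6-fold. Krt7, a keratin of simple and glandular epithelia, was at 8.3, 7.85, 7.97 and 17.6 CPM against 0.923, 0.439, 0.484 and 0.547 CPM and rose 17.2-fold. For Igsf9b and Krt7 S-PRT 1 to 3 lay close together and S-PRT 4 well above them, and the log2 changes without it were 3.22 and 3.74 instead of 3.53 and 4.10. Slit1, an axon guidance ligand, rose 9.03-fold with S-PRT 4 (34.4 CPM against 10.5 to 11.4 CPM in the others), and by log2 2.56 instead of 3.17 without it.

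The other large rises were of low-count genes. Anks1b, a scaffold protein of synapses, was at 4.15 to 8.84 CPM after S-PRT and 0.0605 to 0.272 CPM in Untreated skin, and rose 39.1-fold. Gapdhs, a glycolytic enzyme known from sperm, was at 6.7 to 12.2 CPM against 0.122 to 0.706 CPM and rose 20.5-fold. Susd4, a complement regulator, rose 15.1-fold, Celf5, an RNA-binding protein, 12.9-fold, and Ces2e, a carboxylesterase, 10.1-fold. Ms4a10, a membrane protein of the MS4A family, was at 4.51, 4.97, 4.64 and 8.32 CPM, against 0, 0.11, 0 and 0.122 CPM. Its 4 Untreated libraries held 4 counts in all and the S-PRT libraries 432, so that a fitted fold change would depend on the prior count, and none is given. The rule that named these 10 genes required that all S-PRT libraries lay above all Untreated libraries.

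Besides Cyp2g1, Akr1c18, Hsd3b6, Sprr2i, Sprr2d, Lcn2 and Mc5r, the largest falls were those of Serpina3b, Sh2d5 and Aadacl3. Serpina3b, a serine protease inhibitor, was at 32.8, 93.4, 126 and 15.5 CPM against 639, 726, 633 and 674 CPM. It fell to 0.1 times the Untreated level, with a wide spread relative to the mean among the S-PRT libraries and a narrow one among the Untreated. Sh2d5, an adaptor protein, was at 1.12, 0.359, 0.454 and 0.586 CPM against 1.74, 6.36, 6.05 and 2.07 CPM. Aadacl3, of the arylacetamide deacetylase family, fell to 0.159 times, from 67.8 ± 16.4 to 10.8 ± 4.02 CPM (SD, n = 4). The Serpina3, Akr1c and Ces2 genes belong to clusters of similar copies, so reads may be shared within each cluster.

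Of 27 chemokines and cytokines tested, 5 fell and 0 rose (median -0.24), where 2.52% of all genes tested fell. Without S-PRT 4, 7 fell and 3 rose, where 5.42% and 6.62% of all genes did. Without Untreated 2 only 2 fell. Ccl27a and Ccl27b, made by keratinocytes to draw T cells into skin, were lower in each S-PRT library than in each Untreated one. Ccl27a was at 23.9, 22.2, 27.1 and 44.8 CPM against 58.8, 65.7, 62.7 and 79.5 CPM and fell to 0.442 times. Ccl27b was at 5.27, 4.31, 6.31 and 8.08 CPM against 26.7, 29.4, 21.2 and 31.4 CPM and fell to 0.22 times (edgeR adjusted p = 0.000137). They are near-identical copies, so the share of reads given to each is uncertain. Il1a, an alarm cytokine of keratinocytes, was at 21.8, 18.8, 25.5 and 8.14 CPM against 50.2, 50, 41.4 and 38.1 CPM and fell to 0.414 times, a call lost without Untreated 2. Cxcl1, which attracts neutrophils, fell to 0.274 times, a call held in 5 of the 12 fits that leave out a library.

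The count of interferon-induced genes changed with S-PRT 4. With all libraries 0 of 32 rose or fell (median 0.73), and without S-PRT 4 20 rose (median 0.96), where 6.62% of all genes rose in that fit. Ifit2, an antiviral protein, was at 13.5, 8.41 and 14.1 CPM in S-PRT 1 to 3, at 2.58 CPM in S-PRT 4, and at 3.42, 3.45, 2.3 and 3.59 CPM in Untreated skin. S-PRT 1 to 3 were above every Untreated library, and S-PRT 4 was within the Untreated range. Its log2 change was 1.59 (edgeR adjusted p = 0.0522), and 1.92 without S-PRT 4 (adjusted p = 0.000759). Ifit3 was at 10, 6.15, 11.9 and 2.87 CPM against 4.35, 3.34, 3.14 and 2.25 CPM, with a log2 change of 1.24 (adjusted p = 0.076) and 1.52 without S-PRT 4 (adjusted p = 0.0026). Macrophage markers were low in the same library, S-PRT 4: 0 of 18 rose or fell with all libraries (median 0.68) and 6 rose without S-PRT 4 (median 1.03). Cd68, of macrophage lysosomes, was at 42.6, 33.2, 38.5 and 8.49 CPM against 23, 13.6, 6.59 and 16.6 CPM, and Aif1 at 2.95, 2.87, 2.47 and 0.761 CPM against 0.815, 1.04, 0.423 and 0.912 CPM. Their log2 changes were 1.04 and 1.5 (adjusted p = 0.265 and 0.055), and 1.36 and 1.79 without S-PRT 4 (adjusted p = 0.0225 and 0.00239). The part of the macrophage level in the interferon genes was not tested. Of 16 genes of MHC class I presentation 1 fell and 0 rose (median 0.06); Psme2, a subunit of a proteasome activator, fell to 0.529 times, from 58.9 ± 7.54 to 31.1 ± 3.48 CPM (SD, n = 4). Without S-PRT 4, 1 member of that list rose and 1 fell.

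Other immune lists had no member past the threshold with all libraries, or 1. In the list of dendritic and Langerhans cells 1 of 14 fell (median -0.48): Epcam, an adhesion molecule that Langerhans cells share with follicular epithelium, at 0.657 times the Untreated level, a call held in 4 of the 12 fits that leave out a library. Without S-PRT 4, 2 members fell and 1 rose (median -0.13). Among 17 T and NK cell genes 0 rose or fell and 15 had negative log2 changes (median -0.72). Without S-PRT 4, in which this list was low, 14 had negative log2 changes and the median was -0.38. Cd247, a T cell receptor chain, was at 2.68, 2.72, 3.08 and 1.11 CPM against 5.87, 6.14, 3.45 and 4.68 CPM (log2 -1.07, edgeR adjusted p = 0.0981), with no overlap of the groups. Trdc, the constant segment of the delta chain of gamma-delta T cells, had a log2 change of -1.32 (adjusted p = 0.225). Among 8 mast cell, 3 neutrophil, 6 B cell and 5 red cell genes tested, 0 rose or fell. The medians of these lists were 0.22, -0.54, -0.16 and 0.65, and without S-PRT 4 they were 0.62, -0.17, 0.01 and 0.98. The log2 changes of Ms4a2 and Cpa3 (mast cells) were 0.40 and 0.40, of Cxcr2 and Mmp9 (neutrophils) -1.04 and -0.54, of Blk and Cd79b (B cells) -1.10 and -0.33, and of Alas2 and Hba-a1 (red cells) 0.82 and 0.65. Of the 11 neutrophil genes listed, 8 were too low to test, the granule genes Elane, Mpo and Camp among them.

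Calls among dermal and vessel genes were few with S-PRT 4 and more without it, as they were over all genes, where rises went from 1.83% to 6.62%. Of 19 collagens tested 1 rose and 0 fell with all libraries (median 0.54), and 8 rose without S-PRT 4 (median 0.52). Col1a1, the main collagen of dermis, was at 1150, 1370, 972 and 72.6 CPM against 745, 615, 232 and 321 CPM. S-PRT 1 to 3 were above and S-PRT 4 below all Untreated libraries, and the log2 change was 0.90 (edgeR adjusted p = 0.512), or 1.29 without S-PRT 4 (adjusted p = 0.0241). Col12a1, a collagen that joins fibrils, was at 92.2, 83.8, 86.1 and 147 CPM against 66.4, 70.7, 58.7 and 59.5 CPM and rose 1.60-fold, a call held in 4 of the 12 fits that leave out a library. Among 16 fibroblast genes 0 rose with all libraries (median 0.58) and 3 without S-PRT 4 (median 0.93). Podn and Bgn, matrix proteoglycans, had log2 changes of 0.89 and 1.01, and of 1.17 and 1.36 without S-PRT 4 (adjusted p = 0.00605 and 0.0228). The fibroblast level was also low in Untreated 3 (4.92, against 5.81 to 6.55 in the other Untreated libraries).

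Among 20 endothelial genes, 0 rose or fell (median 0.39) and 7 rose without S-PRT 4 (median 0.78). Pecam1, the adhesion molecule CD31 of vessel walls, was at 62.7, 66.8, 63.5 and 1.64 CPM against 55.1, 35.7, 18.6 and 21.7 CPM. Its log2 change was 0.57 (edgeR adjusted p = 0.738), and 0.98 without S-PRT 4 (adjusted p = 0.0448). Mmrn2 and Robo4, both of endothelium, had log2 changes of 1.31 and 0.81, and of 1.69 and 1.20 without S-PRT 4, past the threshold. Of 7 lymphatic endothelial genes, 5 rose without S-PRT 4 and 0 with it; Lyve1 was at 52, 73.4, 98.5 and 13 CPM against 38.1, 29.3, 10.8 and 19.8 CPM, and Prox1 at 19.1, 22.3, 21.2 and 1.87 CPM against 11.6, 10.2, 5.38 and 7.78 CPM. Among 11 smooth muscle and pericyte genes 5 rose without S-PRT 4 and 0 with it, and among 11 Schwann cell genes 6 and 0. Abcc9 and Lmod1 had log2 changes of 1.20 and 1.01, and Cdh19 and Scn7a of 0.46 and 0.51, each short of the threshold with all libraries. Without S-PRT 4, Abcc9, Cdh19 and Scn7a rose, by log2 1.58, 0.68 and 0.78 (adjusted p = 0.0333, 0.0272 and 0.0085), and Lmod1 was at 1.37 (adjusted p = 0.0738).

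**Figure D4:**
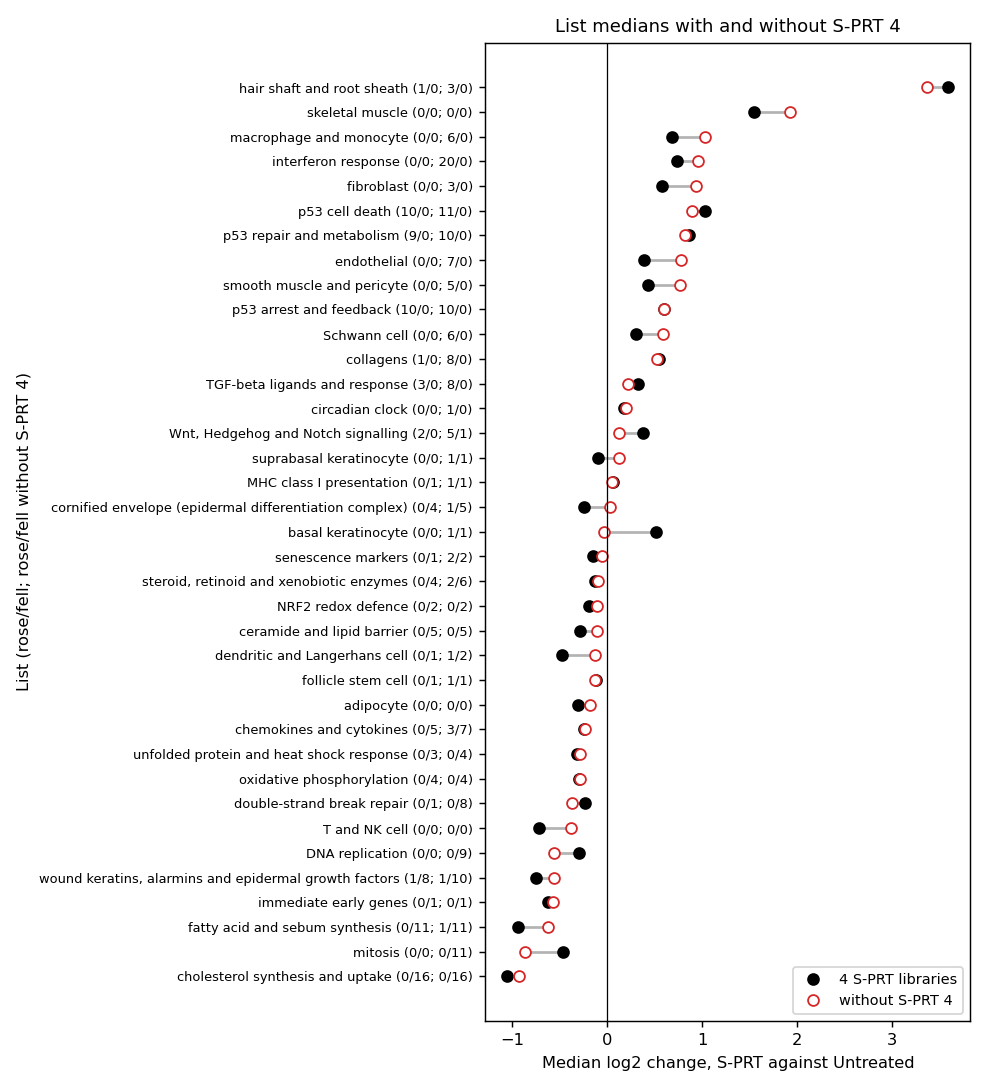
Median log2 change of each list with at least 10 genes tested, S-PRT against Untreated, with all 4 S-PRT libraries (black) and without S-PRT 4 (open red); the labels give the numbers that rose and fell in each case. The medians of the cholesterol list (-1.05 and -0.93) and of the p53 arrest list (0.6 and 0.6) lie close together, while the basal keratinocyte (0.51 and -0.03) and endothelial (0.39 and 0.78) medians move.

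Some signalling genes of the dermis and epidermis rose with S-PRT 4 included. In the list of TGF-beta ligands and response 3 of 24 rose and 0 fell (median 0.32), where 1.83% of all genes tested rose. Without S-PRT 4 8 rose, where 6.62% of all genes rose, and without Untreated 2 only 1 rose. Ltbp2, a matrix protein of the family that binds latent TGF-beta, was at 71.5, 73.9, 61.6 and 80.5 CPM against 44.2, 47.2, 27.4 and 33.1 CPM and rose 1.89-fold (edgeR adjusted p = 0.00873). Ccn2, connective tissue growth factor, was at 79.1, 83.2, 68.6 and 68.3 CPM against 55.6, 43.2, 33.1 and 45.8 CPM and rose 1.68-fold, a call lost without Untreated 2. Inhba, the activin A subunit, rose 1.91-fold, a call held in 4 of the 12 fits that leave out a library. In the list of Wnt, Hedgehog and Notch signalling 2 of 28 tested rose and 0 fell (median 0.38), and 5 rose and 1 fell without S-PRT 4. Wif1, a secreted Wnt inhibitor, was at 16.3, 15.6, 17 and 20.9 CPM against 8.42, 9.21, 8.59 and 7.6 CPM and rose 2.06-fold (edgeR adjusted p = 0.000525). Notch1, a receptor that drives epidermal differentiation, was at 910, 796, 867 and 2020 CPM against 475, 343, 458 and 418 CPM. It rose 2.71-fold with S-PRT 4 and by log2 1.03 instead of 1.44 without it. Wif1 and Notch1 kept their calls with any single skin library left out.

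Appendage and deep tissue markers varied between single libraries. Among 14 hair shaft and root sheath genes tested, 1 rose and 0 fell, with a median of 3.59, or 2.06 without S-PRT 1. Without S-PRT 4, 3 rose. The level of the list was 5.05 in S-PRT 1, 0.11 and 0.82 in S-PRT 2 and S-PRT 3, 3.66 in S-PRT 4, 1.64 in Untreated 3 and -0.05 to 0.2 in the other Untreated libraries, with S-PRT 1 and S-PRT 4 the highest. Krt26, an inner root sheath keratin, was at 29.4, 0.667, 0.555 and 3.63 CPM against 0.109, 0.11, 0.242 and 0.0608 CPM; it rose, a call lost without Untreated 2, Untreated 3 or Untreated 4. Of 10 follicle stem cell genes 1 fell (median -0.12): Lgr6, a Wnt-pathway receptor of follicle stem cells, at 0.635 times, a call held in 5 of the 12 fits. Without S-PRT 4, 1 of that list fell and 1 rose. Of 9 melanocyte genes 1 rose (median 0.90) and 7 rose without S-PRT 4 (median 1.10), where 1.83% and 6.62% of all genes rose. Trpm1, a channel of melanocytes, was at 3.04, 2.67, 2.42 and 3.16 CPM against 1.52, 1.43, 1.94 and 1.16 CPM. It rose 1.87-fold, a call held in 3 of the 12 fits. Among 20 skeletal muscle genes 0 rose or fell (median 1.54, and -0.3 without S-PRT 1); Myh2 was at 361, 65.2, 8.13 and 15 CPM against 14.8, 63.7, 28.8 and 0.426 CPM, and Myh7 at 77.1, 3.74, 2.67 and 3.98 CPM against 0, 2.91, 0 and 0 CPM. Among 14 adipocyte genes 0 rose or fell (median -0.31); the log2 changes of Cfd and Fabp4 were -0.60 and -0.58 (adjusted p = 0.165 and 0.178).

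General stress lists changed in few members. Redox defence by NRF2 had 2 of 23 genes that fell and 0 that rose (median -0.19). Slc7a11, the cystine importer for glutathione synthesis, was at 12.1, 7.69, 6.16 and 6.15 CPM against 17.8, 57, 27.5 and 18.2 CPM and fell to 0.267 times (edgeR adjusted p = 0.00991). Prdx1, a peroxiredoxin, fell to 0.707 times, a call held in 6 of the 12 fits that leave out a library. Of 16 immediate early genes 1 fell (median -0.62): Egr3, at 161, 146, 157 and 96.2 CPM against 298, 215, 232 and 251 CPM, fell to 0.562 times. In the list of unfolded protein and heat shock response 3 of 18 fell and 0 rose (median -0.32), and 0 fell without Untreated 2. Without S-PRT 4, 4 fell (median -0.29), where 5.42% of all genes fell. Atf4, the transcription factor of the integrated stress response, was at 97.3, 92.6, 95.9 and 94.6 CPM against 156, 152, 129 and 115 CPM and fell to 0.69 times, a call lost without Untreated 2. Herpud1 and Hspa5, of the endoplasmic reticulum, fell to 0.644 and 0.629 times, calls held in 3 of the 12 fits each.

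Of 13 senescence markers tested 1 fell and 0 rose (median -0.15), and 2 rose and 2 fell without S-PRT 4. Igfbp3, a binding protein for insulin-like growth factors, was at 135, 105, 134 and 180 CPM against 444, 390, 328 and 331 CPM and fell to 0.372 times (edgeR adjusted p = 0.00164). Of 39 nuclear genes of oxidative phosphorylation 4 fell and 0 rose (median -0.30), where 2.52% of all genes tested fell, and 0 fell without Untreated 2. Those 4 were Uqcrq, Cox7b, Cox7a2 and Atp5j, small subunits of respiratory complexes, at 0.674, 0.676, 0.69 and 0.736 times the Untreated level. The call of Uqcrq was lost without Untreated 2 and that of Cox7b without Untreated 2 or Untreated 3; those of Cox7a2 and Atp5j held in 5 and 3 of the 12 fits. Among 18 clock genes 0 rose or fell (median 0.18); Cry2 and Ciart had log2 changes of 0.50 and -0.95 (adjusted p = 0.0738 and 0.186). Without S-PRT 4 Cry2 rose (log2 0.53, adjusted p = 0.0422).

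Tested directly against F-PRT skin, S-PRT skin showed 0 of 19038 genes past the threshold (0.0%), with 522 at an unadjusted p under 0.05 and a smallest adjusted p of 0.237 in edgeR; DESeq2 called 2 genes and limma voom 0. The 3 genes of smallest p were Nnat, Hcar1 and Slc5a3. Nnat, an imprinted membrane protein, was at 25.4, 22.9, 22.7 and 25.4 CPM after S-PRT, at 35.7 to 63 CPM after F-PRT and at 55.6, 58.5, 56.2 and 52.9 CPM in Untreated skin. The S-PRT libraries lay below all others, and the S-PRT minus F-PRT log2 difference was -1.03 ± 0.15 SE. DESeq2 called Nnat (adjusted p = 4.5e-06), as did edgeR without F-PRT 3 (adjusted p = 0.0194). Against Untreated skin Nnat fell to 0.432 times after S-PRT (adjusted p = 0.000578). Hcar1, the lactate receptor of adipocytes, was at 3.66 to 5.74 CPM after S-PRT and 8.4 to 12.9 CPM after F-PRT, a log2 difference of -1.17 ± 0.19 SE, and was the other gene DESeq2 called (adjusted p = 0.000117). Slc5a3, which imports myo-inositol, differed by -0.64 ± 0.15 SE. The difference was -0.01 ± 0.20 SE for Cdkn1a, -0.06 ± 0.10 SE for Mdm2 and -0.43 ± 0.16 SE for Idi1. The p of 0.237 does not show that the treatments act alike. S-PRT and F-PRT skin share the Untreated libraries, so their changes against these are not independent.

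The S-PRT effect in skin was set against that in bone of the same treatment groups by an interaction test in a fit of all 24 libraries. Of 20754 genes, 1961 (9.45%) differed in their S-PRT effect, with a higher value in skin for 4.96% of the genes and a lower value for 4.49%. In bone alone 18.3% of the genes were called between S-PRT and Untreated: 8.56% rose and 9.73% fell. Of the 826 genes called in skin that could be tested, 357 differed, 226 were called in the same direction in bone and 77 in the opposite direction. Of the 52 p53 genes, 22 rose and 7 fell in bone, where 8.56% and 9.73% of all genes did, and the effect differed in 19. Cdkn1a rose by log2 2.99 in bone, from 16 ± 1.8 to 127 ± 15.4 CPM (SD, n = 4), more than the 0.89 in skin, a difference of -2.10 (edgeR adjusted p = 3.23e-05). Trp53inp1 and Apaf1 went the other way: log2 2.27 in skin and 0.15 in bone for Trp53inp1 (difference 2.11, adjusted p = 2.46e-06), and 1.49 and -0.53 for Apaf1 (difference 2.02, adjusted p = 7.18e-08), which fell in bone. Mdm2 had the larger change in skin (difference 0.47, adjusted p = 0.0178). Zmat3 rose in both tissues, less in skin (difference -0.76, adjusted p = 0.00573).

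Of the 25 cholesterol genes, 14 differed between the tissues and 2 fell in bone, where 9.73% of all genes fell and the median log2 change of the list was -0.03. Idi1 and Lss, at log2 -1.75 and -1.46 in skin, were at -0.22 and 0.18 in bone (differences -1.53 and -1.65). Mc5r was at -2.63 in skin and 0.80 in bone (difference -3.42, adjusted p = 7.84e-06). Gria3 had the interaction of smallest p, with a log2 change of 0.01 in bone (difference 4.24, adjusted p = 9.68e-10). Anks1b, Krt7, Slit1, Igsf9b, Susd4 and Celf5 also rose more in skin, by 4.70, 4.41, 3.61, 2.91, 2.72 and 1.38 log2 units. The next 4 genes by p were Mpig6b, Syne1, Ifnlr1 and Itga2b, which did not pass the threshold in skin with all libraries and fell in bone by 3.01, 2.27, 3.69 and 2.86 log2 units; Mpig6b and Itga2b are receptors of platelets and their precursors. Without S-PRT 4 Syne1 rose in skin (log2 0.52, adjusted p = 0.0448). For Krt14, Krt1, Mki67, Col1a1 and Pecam1 the difference between tissues did not pass the threshold.

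**Figure D5:**
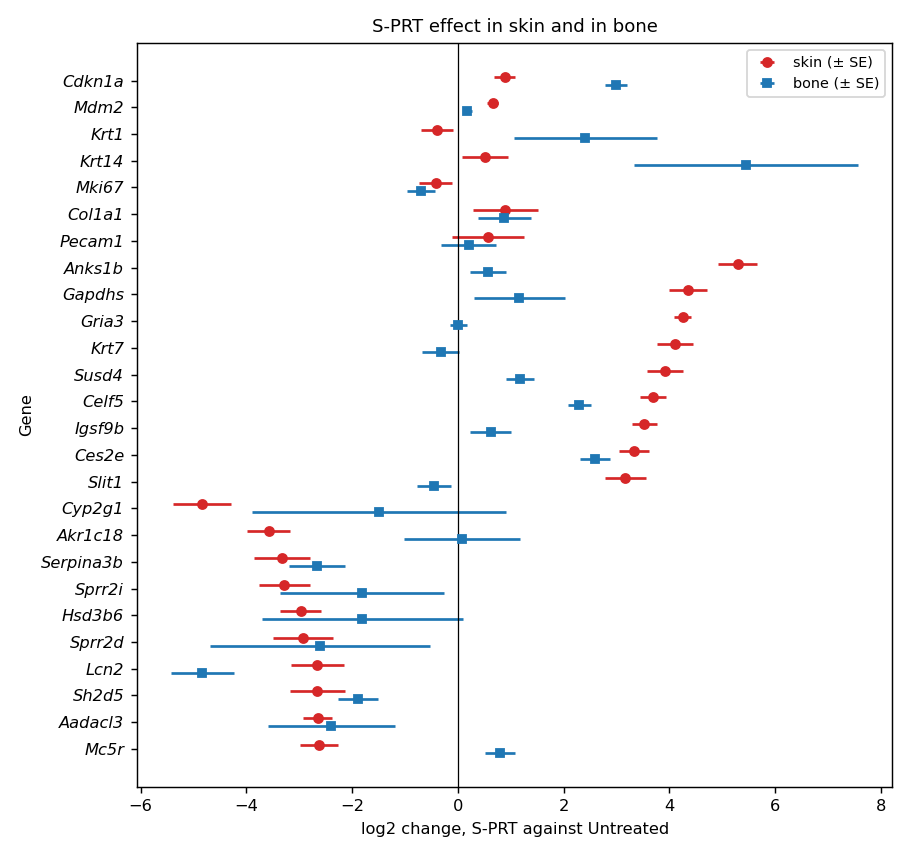
Log2 change of S-PRT against Untreated in skin (red circles) and bone (blue squares), each ± SE, for 26 genes: the panel of 7 and the genes of largest rise and fall in skin except Ms4a10. Cdkn1a changed more in bone (2.99 against 0.89), and Gria3 and Krt7 lie near 0 in bone. Krt14, Krt1, Cyp2g1, Hsd3b6, Sprr2d, Sprr2i, Aadacl3, Akr1c18 and Gapdhs have wide errors in bone (SE 2.12, 1.35, 2.4, 1.9, 2.08, 1.55, 1.2, 1.09 and 0.86). Their group means there were at most 1.24 CPM, so these bone changes rest on few counts.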

How the data were processed

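RNA given as polyA-selected was sequenced in 12 skin and 12 bone libraries. 7SK and 7SL RNA, which lack polyA tails, still took 3.784% to 12.365% of the counts in the skin libraries. The completeness of the selection was not tested. The deposited expected counts per gene were made by the authors with RSEM, and FastQC, cutadapt, STAR and the build GRCm38 are named with it, per the submitters' processing notes; their versions and strand settings are unstated in the sources at hand. The deposited TPM values, made by the authors in the same step, served only as a check on levels. RSEM divides reads shared by similar genes, which makes near copies uncertain. Of 55471 gene IDs, 55230 (99.57%) matched GENCODE M21, and 241 did not. Replicates of a group differed by more than sampling noise.

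Expected counts were rounded to whole numbers, filtered with filterByExpr, scaled by TMM and fitted with edgeR 4.0.16 (quasi-likelihood) under R 4.3.3, over all 12 skin libraries with 1 mean per group, or over all 24 libraries for the test against bone. Log2 CPM values used a prior count of 2. P-values were adjusted by the Benjamini-Hochberg method over all genes tested, with a threshold of 0.05. P-values rest on the spread between libraries of the same group, estimated together over all libraries of a fit, F-PRT included. With only the 8 libraries compared, 307 genes were called between S-PRT and Untreated skin instead of 827. On simulated data for the skin comparison (19038 genes), the fit recovered 54% of 2-fold rises and 94% of 4-fold rises. It recovered 36% of falls to 0.5 times and 86% of falls to 0.25 times, with 8 false calls. Whether these values hold for the measured libraries, among which S-PRT 4 stood apart, was not tested.

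Named genes were a panel of 7, the 10 largest rises and falls (adjusted p under 0.05 in all fits that left out a library, no overlap of groups, mean of at least 2 CPM), up to 4 members of each of 43 lists that passed (ordered by how many of the 12 fits leaving out a library kept them), or the 2 of smallest p where none passed, and the genes of smallest p in the tests against F-PRT and bone. Brca1, Chek1 and Cldn5 were named after their values were seen. Some members that the rule names are not reported here. The members and lists were chosen with earlier results of these data known. Alternatives were DESeq2 1.42.0, limma 3.58.1 (voom with quality weights), RLE scaling, other filters, a collagen covariate, a replicate block, fits of fewer libraries, and each library left out. Promoters came from RefSeq (GRCm38.p6).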

Additional observations from a re-analysis of the deposited data

Results flagged for a closer look

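Each list level (mean log2 CPM) and named CPM was checked for a library whose gap to the nearest of the other 3 of its group was large against the group's range; chance flags about 1 in 20 groups. Of 86 groups of list levels 21 flags arose, and of 54 groups of single genes 10, and 23 of the 31 fell in S-PRT 4 and 5 in Untreated 1. S-PRT 4 stood high for p53 cell death (5.31), double-strand break repair (4.35) and basal keratinocytes (9.93). It stood low for steroid enzymes (3.19), wound keratins (3.11), the cornified envelope (3.55), chemokines (2.49) and suprabasal keratinocytes (7.48). It was also low for markers of fibroblasts (3.98), endothelium (-0.3), lymphatic endothelium (0.65), macrophages (2.53), dendritic cells (1.66), T and NK cells (-0.81), mast cells (-0.55) and neutrophils (0.72). Untreated 1 stood high for p53 cell death (4.29) and ceramide genes (7.19). Untreated 3 stood high for hair shaft genes (1.64) and low for macrophages (2.76) and T and NK cells (1.27).

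Among single genes, S-PRT 4 stood high for Krt14 (8850 CPM), Ms4a10 (8.32 CPM), Krt7 (17.6 CPM), Celf5 (11.9 CPM), Igsf9b (80.6 CPM) and Slit1 (34.4 CPM), and low for Pecam1 (1.64 CPM). Untreated 1 stood high for Cdkn1a (280 CPM), Krt1 (4350 CPM) and Slit1 (2.34 CPM). The cause of these values was not tested.

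The S-PRT effect differed between skin and bone, by the interaction test in edgeR, for 14 of the 31 named genes checked this way. Over all genes 9.45% differed. Mpig6b, Syne1, Ifnlr1 and Itga2b had been named for their small p in this same test, so their flags were fixed in advance. The genes of largest rise and fall had been chosen for their change in skin. It was lower in skin for Cdkn1a (log2 difference -2.10) and Mc5r (-3.42). It was higher in skin for Mdm2 (0.47), Anks1b (4.70), Gria3 (4.24), Krt7 (4.41), Susd4 (2.72), Celf5 (1.38), Igsf9b (2.91), Slit1 (3.61), Mpig6b (2.99), Syne1 (2.69), Ifnlr1 (3.72) and Itga2b (3.48).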

How the results depend on the processing

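The count of genes that differed between S-PRT and Untreated skin (827) was 1489 with DESeq2, 1702 with the collagen level as a covariate, 3101 with limma voom, 307 with only the 8 libraries compared and 4505 without both S-PRT 4 and Untreated 1. With 1 library left out it ranged from 455 (without Untreated 2) to 2292 (without S-PRT 4), and was 1295 without Untreated 1, 528 without Untreated 3 and 546 without S-PRT 1; the cause was not tested. RLE scaling (808), which moved the median of all genes by 0.004 log2 units, and the filters (636 and 858) kept it within 1.5 times. Between S-PRT and F-PRT (0 genes) DESeq2 called 2, and leaving out a library gave 0 to 1. For skin against bone (1961) the range was 1536 (without skin Untreated 2) to 2727 (without skin S-PRT 4). Replicate numbers were not used as pairs in the main fit. Deviations of same-numbered S-PRT and Untreated skin libraries correlated at 0.175, 0.258, -0.344 and 0.107, against -0.457 to 0.397 for different numbers. Those of S-PRT and F-PRT correlated at 0.372, 0.068, 0.195 and 0.126, against -0.385 to 0.185. For each S-PRT library the same-numbered one had the highest correlation among the F-PRT libraries. Those of Untreated and F-PRT correlated at -0.113, -0.135, -0.109 and 0.2, against -0.387 to 0.401. Whether same-numbered libraries belong together was not settled by these values. With the replicate number as a block the counts were 595 in skin, 0 against F-PRT and 1090 against bone. Of the values for named genes under the alternatives, 2563 kept their direction and side of the threshold, 213 lost their call and 119 gained one. Another 21, of 11 genes, changed sign, none of them past the threshold in either fit; the cause was not tested. With the collagen level as a covariate these were Col1a1 (-0.45), Pecam1 (-1.04), Robo4 (-0.31), Prox1 (-0.17), Ms4a2 (-1.1), Cpa3 (-1.29), Hba-a1 (-0.62) and Mpig6b (0.04). With 1 library left out, Krt14 ranged from -0.26 (without S-PRT 4, also with only the 7 libraries compared) to 0.81, Krt1 from -0.58 to 0.11 (without Untreated 1; 0.07 without S-PRT 4 too), Cpa3 from -0.06 (without S-PRT 2) to 0.81, Mpig6b from -0.11 to 0.08 (above 0 without S-PRT 2, Untreated 1 or Untreated 3) and Ifnlr1 from -0.05 to 0.09 (below 0 without S-PRT 4 or Untreated 2). Mpig6b was at 0.02 with only the 8 libraries compared, and Ifnlr1 at -0.06 with those less S-PRT 4 and at -0.0 without the 7SK, 7SL, rRNA-like and mitochondrial genes. Depth limits the genes with few counts in Untreated skin, such as Anks1b and Ms4a10.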

Other observations

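Other gene groups, chosen by symbol after their values were seen, are given as values. Of all genes tested, 2.52% fell and 1.83% rose in skin, 5.42% fell without S-PRT 4, and 9.73% fell and 8.56% rose in bone. Of 63 replication-dependent histone genes tested, which package newly made DNA and mostly lack polyA tails, 39 fell and 0 rose (median log2 change -1.17), and 54 fell without S-PRT 4. Their mean log2 CPM was 3.52, 3.46, 3.39 and 4.13 in S-PRT 1 to 4, 5.02, 4.55, 4.66 and 4.5 in Untreated 1 to 4, and 3.37 to 3.7 after F-PRT. In bone 42 fell (median -0.82). Another set of transcripts without polyA tails, 7SK and 7SL RNA, took 3.784% to 9.097% of the counts in S-PRT and 5.584% to 12.365% in Untreated skin, and their part in the histone values was not tested. Histone genes are near copies of each other, so single members are uncertain.

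Of 47 proteasome subunits and activators, 10 fell and 0 rose in skin (median -0.31), and 13 fell without S-PRT 4. In bone 1 fell (median 0.07). Of 13 genes of the NF-kappaB family and its feedback inhibitors, 6 fell and 0 rose in skin (median -0.46), and 3 rose and 1 fell in bone. Of 101 genes of mitochondrial import and ribosomes 8 fell and 0 rose (median -0.29), and 20 fell without S-PRT 4. Of 17 peroxins, which build peroxisomes, 4 fell and 0 rose (median -0.28).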
